A study of Drosophila melanogaster with 2 samples.

Results

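Of the 1272 high-confidence regions bound by Sima in whole Drosophila melanogaster embryos, 415 had their summit, the base of highest signal, at the promoter of a single protein-coding gene. They were chosen as the regions whose summit lay within 500 bp of the annotated transcription start sites of exactly 1 protein-coding gene, all transcripts of a gene counting together. These single-gene promoter peaks made up 32.6% of the list (95% Wilson interval 30.1 to 35.3%) and belonged to 395 genes; they are called members below. Of the other peaks, 238 lay within the same distance of starts of 2 or more genes, called shared-promoter peaks here, and 619 lay farther from any protein-coding start.

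Sima is the fly counterpart of the alpha subunit of hypoxia-inducible factor (HIF), a basic helix-loop-helix PAS protein that is broken down when oxygen is plentiful and accumulates when it is scarce. With its partner Tango it binds short sites with a core of ACGTG or GCGTG, and among its known targets are genes of glycolysis. A promoter is the stretch around a transcription start; in flies some promoters carry positioned elements such as the TATA box, the initiator and downstream elements, while those of broadly expressed genes more often carry the DNA replication-related element (DRE) or the Ohler motifs.

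Chromatin was immunoprecipitated with an antibody against GFP from a transgenic line with stable expression of sima-RB, an isoform of sima, carrying GFP at its C-terminal end, and sequenced. Embryos were 0 to 24 h old and of both sexes. There was 1 group with 2 biological replicates, so nothing was compared between conditions, and no untagged or input sample was analysed here. The labels name no oxygen treatment, and whole animals were used, so the signal pools every cell type and stage of the embryo, and binding in few cells cannot be told apart from weak binding in many. The labels do not say how the level of the tagged protein compares with that of native Sima. The regions come from the list the authors thresholded by the irreproducible discovery rate (IDR). Depth is unknown, because no read totals are in the material used here, and every interval below covers counting error over peaks or genes only. With 1 group and peaks that are not replicates, no test was made. Differences between sets of peaks are given as values side by side and were not tested.

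The sequences that follow show promoter stretches of some strong members and examples of the main kinds of element. In ph-p, CG17896 and Gs2 the summit lies outside the stretch shown. All are from the Release 6 genome (dm6), read 5' to 3' on the strand of the gene; each begins 25 bases before the summit, or 60 bases before the start where the summit lies nearer, downstream or too far off to show, and ends with 20 transcribed bases. Capitals mark the searched words. The TATA box and the initiators are marked only where their position and strand count as a match, and the words searched on both strands are marked anywhere in the stretch shown, in either orientation. CTCTC is the GAGA word on the other strand of the gene. In the same way CACGT and, in other places, CACGC stand for the hypoxia core. Ugalt (chrX:2703833-2703914, minus strand), which encodes the transporter of UDP-galactose into the Golgi, had the strongest of all Sima peaks and held none of the words in the window shown. The promoter of ph-p (chrX:2136836-2136915, minus strand), a subunit of Polycomb repressive complex 1, held a GAGA repeat just after the start. CG17896 (chrX:493476-493555, minus strand) shows the initiator.
Ugalt: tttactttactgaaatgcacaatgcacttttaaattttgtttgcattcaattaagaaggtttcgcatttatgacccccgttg
ph-p: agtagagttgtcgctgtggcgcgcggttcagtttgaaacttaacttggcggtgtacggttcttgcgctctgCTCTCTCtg
CG17896: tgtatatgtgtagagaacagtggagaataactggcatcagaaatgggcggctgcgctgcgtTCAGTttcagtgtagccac

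Elements of broadly expressed genes stood in eEF1gamma (chr3R:29220112-29220191, plus strand), a translation elongation factor with a DRE. TRAM (chrX:935305-935445, plus strand) shows Ohler motif 7, CG1142 (chr3R:7473762-7473968, minus strand) Ohler motif 1, and Hpf1 (chr3R:5791680-5791898, plus strand), a cofactor of ADP-ribosylation, Ohler motif 6. RpL24 (chr2L:13395112-13395191, minus strand), a protein of the large ribosomal subunit, held an E-box that contains the hypoxia core. Gs2 (chrX:11422772-11422851, plus strand), a glutamine synthetase, is 1 of the 9 members with a TATA box. TRAM and eEF1gamma are shown for their elements in place of mRpL41 and Alg3, the strongest carriers, and this choice was made after their values were seen.
eEF1gamma: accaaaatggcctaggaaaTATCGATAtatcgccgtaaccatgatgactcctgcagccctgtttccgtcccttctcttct
TRAM: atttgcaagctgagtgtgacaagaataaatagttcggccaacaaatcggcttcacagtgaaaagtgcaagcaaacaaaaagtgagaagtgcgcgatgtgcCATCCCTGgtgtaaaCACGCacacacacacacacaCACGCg
CG1142: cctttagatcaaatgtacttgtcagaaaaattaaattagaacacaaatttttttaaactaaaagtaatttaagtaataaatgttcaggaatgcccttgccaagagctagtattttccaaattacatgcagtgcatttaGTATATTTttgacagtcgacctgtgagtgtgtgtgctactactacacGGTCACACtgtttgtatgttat
Hpf1: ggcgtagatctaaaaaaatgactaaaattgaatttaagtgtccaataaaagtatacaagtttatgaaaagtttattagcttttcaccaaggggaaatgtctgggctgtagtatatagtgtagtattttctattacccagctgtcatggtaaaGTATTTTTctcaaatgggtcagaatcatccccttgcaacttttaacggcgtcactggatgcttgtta
RpL24: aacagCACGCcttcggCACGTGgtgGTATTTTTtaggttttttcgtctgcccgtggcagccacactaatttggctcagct
Gs2: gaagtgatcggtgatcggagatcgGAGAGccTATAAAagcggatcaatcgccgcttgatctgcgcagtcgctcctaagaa

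The glycolytic genes Gapdh2 (chrX:15867959-15868164, plus strand), Hex-A (chrX:9585476-9585694, plus strand) and Ldh (chr3L:6262675-6262869, minus strand) are shown because their pathway is a known target of HIF. Gapdh2 and Hex-A held hypoxia cores and GAGA words near the start, and Ldh held GAGA words alone in the window shown. No hypoxia core lay within 50 bp of the summit in Gapdh2 or Hex-A. Of the other glycolytic members, not shown, Eno held a GAGA word alone and Pgk none of the marked words in the same kind of stretch.
Gapdh2: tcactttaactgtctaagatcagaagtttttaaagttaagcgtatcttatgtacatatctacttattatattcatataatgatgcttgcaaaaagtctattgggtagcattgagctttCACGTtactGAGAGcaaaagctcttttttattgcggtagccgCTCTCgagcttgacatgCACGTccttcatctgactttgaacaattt
Hex-A: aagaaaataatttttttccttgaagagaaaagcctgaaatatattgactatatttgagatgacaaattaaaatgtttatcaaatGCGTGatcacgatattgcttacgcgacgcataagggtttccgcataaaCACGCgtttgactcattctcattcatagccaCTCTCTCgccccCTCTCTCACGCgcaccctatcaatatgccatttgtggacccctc
Ldh: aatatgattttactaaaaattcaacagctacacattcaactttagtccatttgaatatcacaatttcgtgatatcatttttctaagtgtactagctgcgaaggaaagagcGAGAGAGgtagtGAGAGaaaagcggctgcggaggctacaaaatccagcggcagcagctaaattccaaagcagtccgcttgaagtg

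The signal of a region is compared as its ratio to the median of the 30000 regions in the same replicate's list, because the scale of the deposited signal is not stated in the material used. Ugalt led the pooled list and replicate 2 and ranked 12 in replicate 1, at 22.2 times the list median in replicate 1 and 40.5 times in replicate 2 (mean 31.4 ± 13.0, SD, n = 2). Its summit lay at -37 bp, where negative positions are upstream of the nearest start, at the more upstream of its 2 starts and between genes (chrX:2703717-2704059). CG14100 followed, with ratios of 21.4 and 39.8 and a summit at -95 bp (chr3L:19590459-19590786). Both were higher in replicate 2 on this scale.

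The peak at rank 4 of the whole list lay in an intron of px, which encodes the nuclear protein Plexus that takes part in wing vein patterning (chr2R:22514156-22514448). Its ratios were 22.4 in replicate 1 and 31.7 in replicate 2, with the summit at -213 bp from the most downstream of 3 starts. The peak of mRpL41, a protein of the mitochondrial ribosome, reached 16.3 and 27.2 at -137 bp (chr2R:15217585-15217909). At ph-p the summit lay at -484 bp, in an intron (chrX:2137207-2137518), with ratios of 14.4 and 24.7. PNPase, a mitochondrial exoribonuclease, was the only one of the 12 strongest members with its summit downstream of the nearest start, at 75 bp (chr3R:31404537-31404806), and had ratios of 15.2 and 20.5.

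The remaining strong members were larp, an RNA-binding protein of the La-related family, with ratios of 11.4 and 18.3 at -326 bp (chr3R:28326476-28326724); CG1888 at -243 bp (chr2R:9547071-9547312), with 9.76 and 18.3; and CG13921 at -144 bp (chr3L:1746635-1746875), with 10.6 and 16.3. The peak of gish, a casein kinase I (chr3R:16280581-16280849, intronic, -142 bp) was the exception in direction, at 13.5 in replicate 1 and 12.6 in replicate 2. CG31145 (chr3R:23669680-23669964, -159 bp) reached 11.1 and 15.9, and CG18549 (chr3R:12449042-12449292, -125 bp) 11.4 and 14.8. The ratio was higher in replicate 2 for 11 of these 12, and all 12 ranked within the first 50 regions of each replicate's own list.

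Across all members the same tilt was present on this scale. The median signal of the whole list was 14.6 in replicate 1 and 10.7 in replicate 2. An equal deposited signal therefore gives a higher ratio in replicate 2, and the tilt is not read as a difference in Sima binding. A matching region, with its summit within 100 bp, was found in both replicates for 388 of the 415 peaks, or 93.5% (90.7 to 95.5%), beside 93.7% of the shared-promoter peaks and 92.9% of the distal ones. Counted singly, 404 members had a match in replicate 1 and 399 in replicate 2, and each had a match in at least 1 of them. The median ratio was 3.08 in replicate 1 (quartiles 2.47 and 4.32) and 4.24 in replicate 2 (2.996 and 5.785), and the ratio was higher in replicate 2 for 291 of the 388. The SD over the 2 replicates was a median 26.0% of the mean, and Spearman's rho between the replicates was 0.51 across the 388 peaks, a description only. Both replicates placed 245 members (59.0%) among their own 1272 strongest regions, beside 49.6% of shared-promoter and 54.8% of distal peaks.

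**Figure D1:**
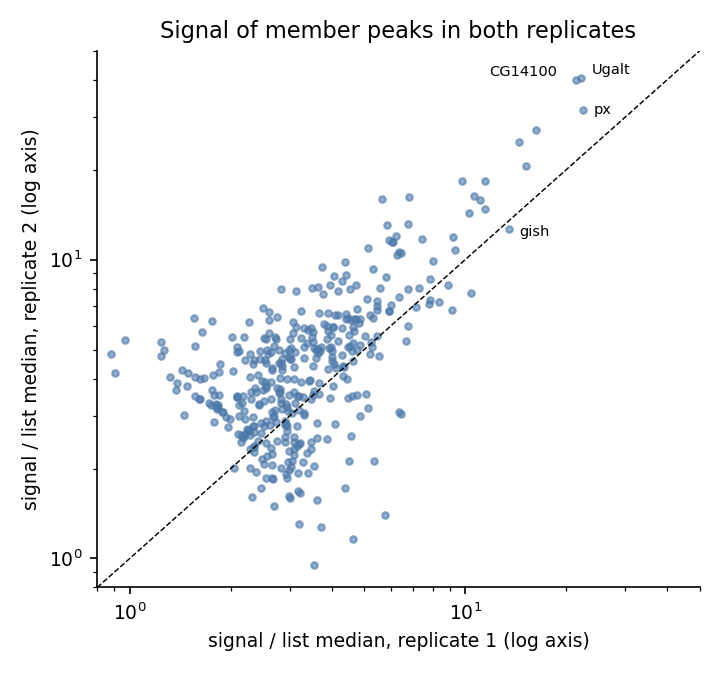
Signal of the single-gene promoter peaks matched in both replicates (n = 388), as the ratio to the median of each replicate's own list, on log axes; each point is a peak and the dashed line marks equal ratios. Most points lie above the line, with 291 of 388 higher in replicate 2, while gish lies just below it. The list medians were 14.6 in replicate 1 and 10.7 in replicate 2, so an equal deposited signal lies above the line.

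The strongest members without a match in 1 replicate were spi, Sox102F and bowl. For all of them replicate 1 had no region with its summit within 100 bp. With 200 bp allowed, 99.3% of all members were matched in both replicates. At spi, which encodes the EGF receptor ligand Spitz, the summit lay at -181 bp (chr2L:19575570-19575965) and the ratio in replicate 2 was 9.09. For Sox102F, a Sox-family gene, the ratio in replicate 2 was 5.72 at -216 bp (chr4:807365-807760), and for bowl, a zinc finger gene of the odd-skipped family, 4.24 at -305 bp (chr2L:3771197-3771592). Each of these 3 genes had a second member peak whose summit lay 200 to 203 bp from the first, so the regions of each pair overlap.

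Summits were on the upstream side of the start. The median position was -159 bp, with quartiles at -268 and -56.5 bp, and 351 of 415 summits (84.6%, 80.8 to 87.7%) lay upstream. The replicates' own summits gave medians of -158.5 bp in replicate 1 and -157 bp in replicate 2, and the summits of a peak in the 2 replicates lay a median 29.5 bp apart. The stretch from -300 to -1 bp held 278 summits (67.0%), and 52 (12.5%) fell within 50 bp of the start. Chromatin fragments were 200 to 800 bp long, per the labels, longer than most of these distances.

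The count fell off on both sides of a maximum between -200 and -101 bp, which held 110 summits. There were 83 in the 100 bp next to the start, 85 from -300 to -201 bp, 45 in the 100 bp before that and 28 in the last 100 bp of the window. Downstream there were 23 in the first 100 bp, 19 in the next, and 4, 7 and 11 in the 3 after that. Shared-promoter peaks sat closer, at a median of -82 bp (quartiles -124.8 and -9 bp) with 76.9% upstream. Their rule holds them near more than 1 start, which limits how far from the nearest start they can lie, so the distances are not like for like.

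Stronger peaks lay somewhat farther upstream. With the members split by pooled signal into 4 classes of 103 or 104, 91.3% of summits in the strongest class were upstream and the median was -174 bp. In the next class these were 87.5% and -181 bp. The class after that had 74.0% upstream with a median of -102 bp, and the weakest had 85.6% with -122 bp, so the order was not even from class to class. At the edge of the rule, CG6225 (-500 bp, ratios 2.35 and 4.63) and CG17896 (-499 bp, 5.83 and 13.1) were the last inside. CG31612 (501 bp, 4.64 and 7.38) and Pi3K92E (501 bp, 1.62 and 3.60) were the first outside, with values in the same range.

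**Figure D2:**
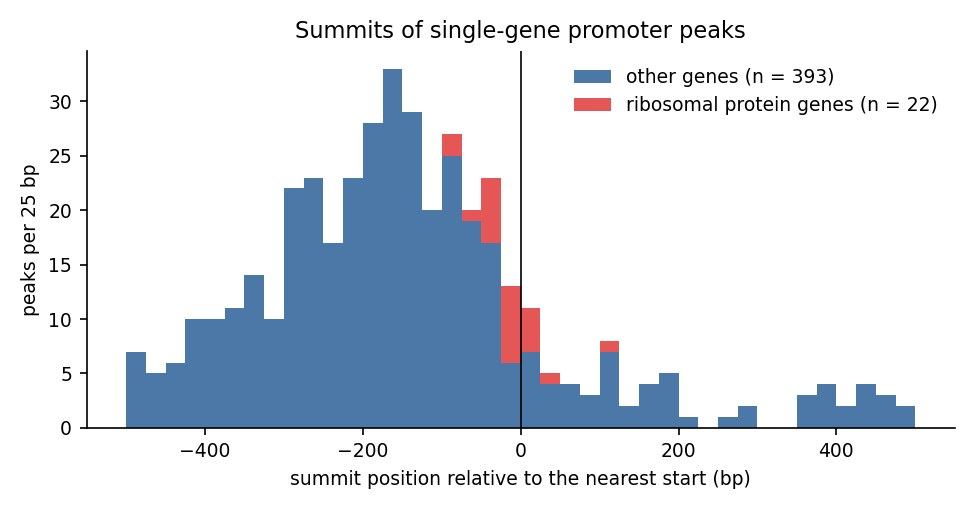
Number of single-gene promoter peaks per 25 bp by summit position relative to the nearest start (x axis, bp; negative is upstream), stacked for the 22 peaks at cytoplasmic ribosomal protein genes and the 393 others. The bulk lies upstream around the median of -159 bp, and the ribosomal protein peaks gather at the start, with a median of -16.5 bp.

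Of the 415 summits, 196 lay between genes, 135 in an intron of the gene itself, 57 in an untranslated exon of it, 2 in its coding sequence and 25 inside another gene. The nearest start of another protein-coding gene was a median 2897 bp away (quartiles 1529 and 6066 bp). For 60 members, however, such a start lay 501 to 1000 bp from the summit, so the word single depends on the distance chosen; blw, the alpha subunit of ATP synthase, is one, with the start of CG42260 at 638 bp. Starts of noncoding genes lay within 500 bp for 32 members, among them 27 noncoding RNAs, 4 tRNAs, 3 snoRNAs and 2 pseudogenes. At mRpL41 the noncoding neighbour was lncRNA:CR44463, and at RpL17 it was a snoRNA and a tRNA.

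The X chromosome carried 79 of the members (19.04%, 15.55 to 23.09%), beside 9.24% of the shared-promoter peaks (6.18 to 13.6%) and 21.0% of the distal ones. The other members were spread over 2L with 80, 2R with 80, 3L with 79, 3R with 94 and the small chromosome 4 with 3. The share of all protein-coding genes on each arm was not set beside these counts, so they are not read against the genome.

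Single-gene promoter peaks stood often at genes with alternative promoters, where different transcripts of a gene begin at different places. Starts within 100 bp of each other were merged. After that, 229 of the 395 genes (58.0%, 53.1 to 62.7%) had 2 or more starts, beside 23.6% of all 13945 protein-coding genes on the same arms. Counted by peak, 248 of 415 members (59.8%, 55.0 to 64.4%) had such a gene at the nearest start, as did 47.9% of shared-promoter peaks (41.6 to 54.2%). A gene with more starts offers more places for a summit to be counted, so the share per start was also taken. Of the merged starts of genes with 1 start, 1.56% (166 of 10652) had a member peak, against 2.79% (92 of 3293) of the most upstream starts of genes with several and 2.99% (149 of 4977) of their other starts. The intervals, for counting error only, were 1.34 to 1.81%, 2.28 to 3.41% and 2.56 to 3.51%. Peaks with a start of another gene within 500 bp are left out by the rule. This may remove more peaks at one class of start than at another, which was not tested. The members' genes were also longer, with a median of 5898 bp beside 2166 bp over all protein-coding genes, and whether length moves with the share was not tested.

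Where a gene had several starts, the peak was found at any of them. Of 248 such peaks, 95 (38.3%, 32.5 to 44.5%) were at the most upstream start, 79 at one in between and 74 at the most downstream. The most upstream starts are 30.6% of the 748 merged starts of these genes. With 2 starts, 61 of 99 peaks took the upstream one; with 3 starts the peaks numbered 21, 29 and 22 from upstream to downstream. The bound start was used by a median 33.3% of the gene's annotated transcripts (quartiles 24.3 and 50%).

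The strongest peaks at most upstream starts were those of Ugalt, CG13921, CG17896, Sox14 and brwl. Sox14, a transcription factor of the ecdysone response, had ratios of 6.76 and 13.2 with its summit at -246 bp from the first of 3 starts (chr2R:23978456-23978631). The strongest at other starts were px, ph-p, PNPase, larp and CG1888. At larp the peak lay by the fifth of 5 starts, which 2 of 7 transcripts use, and at gish by the third of 4, which 5 of 16 use.

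The median summit lay farther upstream at internal starts, though the quartiles of the classes overlapped. The median was -135 bp for genes with 1 start (quartiles -221.5 and -46.5 bp) and -157 bp at most upstream starts (-276.5 and -39.5 bp). It was -200 bp at the other starts (-290 and -89 bp). There 128 of 153 summits fell in an intron of the gene itself, the upstream side of an internal start being mostly inside the gene. Signal was of the same order in the 3 classes. Median ratios were 2.96 in replicate 1 and 3.92 in replicate 2 at single starts, 3.08 and 4.24 at most upstream starts, and 3.23 and 4.69 at the others.

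Of the 395 genes, 18 had more than 1 member peak, and at 10 of them the peaks stood at different starts. Rtnl1, which encodes a reticulon that shapes the endoplasmic reticulum, had 3 peaks at 3 of its 7 starts, spread over 7560 bp. The strongest (chr2L:4997534-4997764, -254 bp) had ratios of 10.2 and 14.3, the next (chr2L:5004997-5005392, -267 bp) 4.18 and 7.83, and the weakest (chr2L:4999671-5000066, -367 bp) had 4.85 in replicate 2 and no match in replicate 1. All 3 lay in introns upstream of an internal start.

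At ph-p a second peak (chrX:2137828-2137970) had ratios of 3.75 and 9.42 and lay 441 bp downstream of the most upstream start, 591 bp from the first peak. The pair at brwl (chr2L:9568650-9568833 and chr2L:9569818-9570213) stood at both of its starts, with ratios of 8.02 and 9.93 at the upstream one and 2.95 and 4.00 at the other. Ptpmeg2, a tyrosine phosphatase, also had 3 peaks at 3 of 6 starts, and dnc, a cAMP phosphodiesterase, had peaks at 2 of 9; both were named after their values were seen. At Drat, spi, Rme-8, Sox102F, bowl, CG7737 and Ldh, by contrast, both summits were assigned to 1 start and lay 199 to 203 bp apart.

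**Figure D3:**
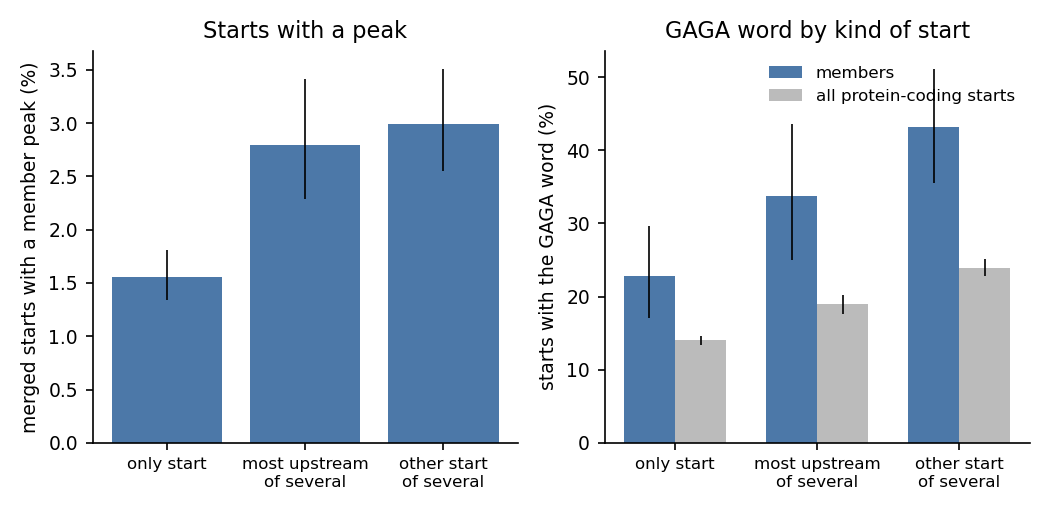
Left, percent of merged start sites that have a single-gene promoter peak, for genes with 1 start (n = 10652), the most upstream start of genes with several (n = 3293) and their other starts (n = 4977). Right, percent of starts with the GAGA word within -100 to 20 bp, for the peaks and for all protein-coding starts of each kind. Bars start at 0 and lines are 95% Wilson intervals. In both panels starts of genes with several are higher than single starts.

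Promoter context was read as short words at fixed places relative to the nearest start, for the 415 members, the 238 shared-promoter peaks and all 19253 protein-coding starts on the same arms. On the sense strand the TATA box was TATAAA with its first base at -40 to -20. The initiator was either of the words TCAGT and, alternatively, TCATT at -5 to 1, and the TCT initiator either of the words TCTTTT and, alternatively, TCTTTC at -4 to 2. A downstream element was looked for at 24 to 34 as AGACG or with G first as GGACG and, in a second form, as AGTTG or with G first as GGTTG. The remaining words were searched on both strands from -100 to 20. Among them the DRE was TATCGAT, Ohler motif 1 was GGTCACAC, and Ohler motif 6 was GTATTTTT and, alternatively, GTATATTT. Ohler motif 7 was CATC followed, after any 1 base, by CTA and, alternatively, by CTG at its end. The GAGA word was GAGAG. The E-box was CACGTG, which always contains the hypoxia core, searched as ACGTG and, alternatively, with G first as GCGTG in the same window. A match is a description of the letters and not a bound site.

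The GAGA word was the most frequent. GAGAG, the binding word of the GAGA factor encoded by Trl, occurred at 136 members (32.8%, 28.4 to 37.4%), at 10.9% of shared-promoter peaks and at 17.5% of all starts. It was above the share over all starts of the same kind in each class: 22.8% beside 14.0% at single starts, 33.7% beside 18.9% at most upstream starts, and 43.1% beside 23.9% at other starts. Among 519 other starts of the members' genes with several starts, 23.9% held it. Trl itself was a member, with ratios of 2.64 and 4.91 and the summit 183 bp inside its most downstream start (chr3L:14756955-14757350).

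Under the summits the word was not frequent. GAGAG lay within 50 bp of the summit in 9.40% of members (6.95 to 12.6%), beside 5.46% of shared-promoter and 10.2% of distal peaks. Of 17088 starts of genes without a peak, 13.6% held it. Those were all read at the members' median position of -159 bp, while member summits ranged from -500 to 497 bp, so the places are not like for like. Members with the word had summits at a median of -200 bp and a median pooled rank of 516. Those without had -137 bp and 629, and the interquartile ranges of both measures overlapped. The ratios with and without the word were 3.39 and 2.98 in replicate 1 and 4.63 and 4.02 in replicate 2.

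The initiator and the downstream element were above the share over all starts, and the TATA box was below it. The initiator occurred at 15.7% of members (12.5 to 19.5%), beside 4.62% of shared-promoter peaks and 10.6% of all starts. The downstream element occurred at 14.2% (11.2 to 17.9%), beside 6.72% and 6.91%. The 519 other starts of members' genes with several starts held them at 12.9% and 9.63%. With a distance of 250 bp in the rule each was at 11.0% of members. The TATA box was at 9 members (2.17%), below the 6.87% of all starts. By class it was at 2.40% of members beside 9.14% of all starts where the gene has 1 start, 2.11% beside 3.20% at most upstream starts and 1.961% beside 4.287% at other starts. With the window widened to -100 to 50, the TATA box was at 6.75% of members beside 15.8% of all starts, and the initiator at 47.0% beside 43.7%. Gs2 had the strongest peak among them (chrX:11423131-11423526, ratios 3.81 and 6.09), with its summit 497 bp past that start.

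Of the elements of broadly expressed genes, the DRE and Ohler 7 had lower shares in the members than in shared promoters. The DRE occurred at 36 (8.67%), beside 18.5% of shared-promoter peaks and 11.6% of all starts, and Ohler 7 at 24 (5.78%), beside 17.2% and 5.40%. The place of the DRE against all starts depended on the rule and on the kind of start. Its share was 14.03% with a distance of 250 bp. Read at each gene's most upstream start it was 13.98%. The like shares over all genes were 13.85% at single starts and 14.2% at most upstream starts. At genes with 1 start the DRE was at 14.37% of members beside 13.85% of all starts. It was at 8.42% beside 14.2% at most upstream starts, and at 2.61% beside 5.06% at other starts. Ohler 1 was at 10 members (2.41%), beside 5.04% and 4.38%, and Ohler 6 at 19 (4.58%, 2.95 to 7.04%), beside 5.88% and 5.56%. Summits with a DRE lay close to the start, at a median of -56 bp, as did those with Ohler 7, also at -56 bp, whereas those with an initiator lay at -219 bp. None of the 8 core elements was found at 234 members (56.4%), close to the 57.7% of all starts.

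Named carriers illustrate the range. Alg3, a mannosyltransferase that builds N-glycans, was the strongest member with a DRE (chr2R:23709750-23709952, -61 bp, ratios 7.43 and 11.8). CG1142 carried Ohler 1 (chr3R:7473834-7474018, -162 bp, 7.88 and 8.59), Hpf1 carried Ohler 6 (chr3R:5791507-5791902, -174 bp, 6.43 and 10.6) and CG13501 the TCT initiator (chr2R:22061711-22061842, -308 bp, 5.56 and 8.05). All 4 had the higher ratio in replicate 2.

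How the hypoxia core compared with its background depended on the window. It occurred from -100 to 20 bp at 100 members (24.1%, 20.2 to 28.4%), at 22.7% of shared-promoter peaks and at 21.2% of all starts. With the window extended to 50 bp past the start, it was at 38.3% of members beside 29.3% of all starts. Within 50 bp of the summit it was found in 15.7% of members (12.5 to 19.5%), beside 15.55% of shared-promoter and 10.8% of distal peaks. It was found in 15.8% of starts of genes without a peak, all read at -159 bp. The E-box was at 4 members (0.96%), beside 2.10% of shared-promoter peaks and 1.34% of all starts, with RpL24 the strongest. Base composition at the summit was A+T rich, with a median G+C of 33.7% (quartiles 28.7 and 41.6%) within 50 bp of it. The median was 31.7% for shared-promoter and 33.7% for distal peaks, and 36.6% at -159 bp of starts of genes without a peak.

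**Figure D4:**
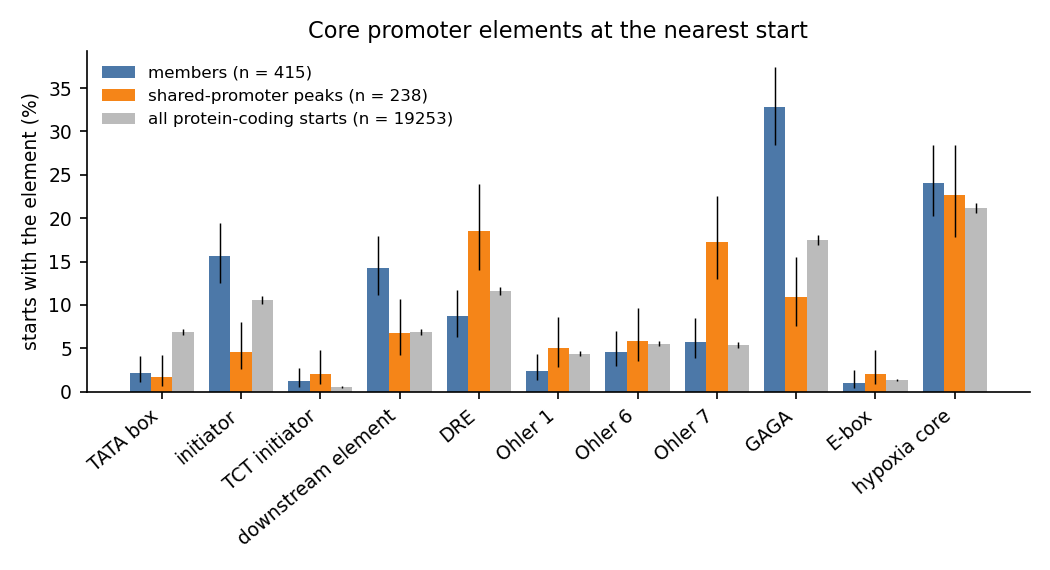
Percent of nearest starts with each promoter word, for single-gene promoter peaks (labelled members, n = 415), shared-promoter peaks (n = 238) and all protein-coding starts (n = 19253); lines are 95% Wilson intervals. GAGA stands at 32.8% in the members beside 17.5% of all starts, while the hypoxia core stands between 21.2 and 24.1% in all 3 sets in this window, and at 38.3% of members beside 29.3% of all starts when it is extended to 50 bp.

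The functions of the 395 genes were read from 19 lists of named genes, chosen with earlier results of these data known. As background, 6.22% of all protein-coding genes had any high-confidence summit within 500 bp of a start, and 2.83% were the only gene there. Cytoplasmic ribosomal protein genes accounted for 22 of 93 on that second measure (23.7%, 16.2 to 33.2%), with a further 22 only at shared promoters. These proteins form the ribosome, and their genes are among the most highly transcribed. All 22 peaks were matched in both replicates. With a distance of 1000 bp in the rule, 14 genes were left, as more of them had another start in reach.

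Their summits lay closer to the start than those of the other members. They stood at a median of -16.5 bp, from -95 to 112 bp, and 18 of 22 fell within 50 bp of the start, beside 34 of the 393 other members, whose median was -169 bp. Replicate 1 summits gave -13 bp and replicate 2 summits -24.5 bp for the same 22. G+C at the summit was a median 47.5%, and all 22 values exceeded the members' median of 33.7%.

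Among the 22, RpL23A was the strongest, with ratios of 6.33 and 10.6 and its summit at -95 bp (chr3L:1668681-1668812). RpL24 had 6.01 and 7.05 at 1 bp (chr2L:13394932-13395327). The others ranged from 1.48 (RpS23) to 5.22 (RpL11) in replicate 1 and from 2.80 (RpL9) to 6.52 (RpS10b) in replicate 2. On this scale 18 of 22 were higher in replicate 2. RpS23 and RpL8 ranked low in replicate 1, at 4987 and 4185 of its 30000 regions, against 697 and 378 in replicate 2, so their place in the list leans on replicate 2.

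Several of the words at these 22 ribosomal protein promoters also differed in share from the other members. The DRE occurred at 8 of 22 beside 28 of 393 other members, and Ohler 7 at 5 beside 19 of 393. The GAGA word was at 1 of 22 beside 135 of 393, and the initiator at none beside 65 of 393. The TCT initiator, known from ribosomal protein promoters, matched in these exact letters at 2 of 22 and 3 of 393, beside 0.535% of all starts. A hypoxia core lay within 50 bp of the summit at 8 of 22, at a higher G+C than the other members, and the part of base composition in this was not tested.

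Glycolysis and lactate enzymes gave 5 of 17 genes (29.4%, 13.3 to 53.1%), with 6 peaks, all upstream of the start. Gapdh2, glyceraldehyde-3-phosphate dehydrogenase, had ratios of 7.85 in replicate 1 and 7.30 in replicate 2 with its summit at -161 bp (chrX:15867888-15868065). Hex-A, the hexokinase that opens the pathway, had 7.14 and 6.96 at -174 bp (chrX:9585492-9585600). Both were close in the 2 replicates, with SDs of 0.39 and 0.13 around means of 7.57 and 7.05.

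Ldh, lactate dehydrogenase, which regenerates the NAD needed by glycolysis without oxygen, had a peak at -150 bp (chr3L:6262646-6263041) with ratios of 4.46 and 3.44. Its second, overlapping peak at -353 bp had 1.67 in replicate 1 and no match in replicate 2. Eno, enolase, had 2.29 and 3.61 at -228 bp from the most downstream of 3 starts (chr2L:1727747-1728142). Pgk, phosphoglycerate kinase, had 2.63 and 2.34 at -167 bp from the last of 5 starts (chr2L:2748456-2748851). Gapdh2, Hex-A, Ldh and Pgk thus had higher ratios in replicate 1, unlike 291 of the 388 members at large. Ldh, Eno and Pgk were named after their values were seen.

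Heat shock proteins and their cognates gave 4 of 24 genes (16.7%, 6.68 to 35.9%). Hsp83, the fly Hsp90 chaperone, had ratios of 8.35 and 7.23 and a summit in its untranslated first exon at 123 bp (chr3L:3193024-3193175). Hsp27, a small heat shock protein, had 2.73 and 5.42 at -118 bp (chr3L:9383747-9384142), and Hsp26 and Hsc70-4 were the others. Polycomb and Trithorax group genes, which hold chromatin in silent or active states, gave 4 of 25 (16%, 6.40 to 34.7%). These were ph-p with both its peaks, Trl, Pc and kis. The Polycomb and Trithorax count was 2 on replicate 2 alone, and both it and the heat shock count were 2 at a distance of 1000 bp and above the list's median signal.

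The lists with few members stood near the background. Translation factors gave 3 of 53 (5.66%): eIF6, which keeps ribosomal subunits apart, with 5.94 and 11.6 at -95 bp (chr2R:23850320-23850519), eEF1gamma with 6.26 and 10.4 at -4 bp (chr3R:29220034-29220229), and eIF3c. Mitochondrial ribosomal proteins gave 2 of 73 (2.74%), mRpL41 and mRpL4 (chr2L:16329042-16329437, -108 bp, 2.67 and 1.84). Oxidative phosphorylation gave 1 of 88, blw (chr2R:22798729-22799124, -172 bp, 2.98 and 4.72).

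Further single genes came from the insulator, segmentation and cell cycle lists. SMC1, a cohesin subunit, had ratios of 2.27 and 2.69 (chr3R:24058044-24058439, -45 bp). The morphogen gene bcd, near the end of the list at rank 1270, had 1.72 and 3.30 (chr3R:6759471-6759866, -203 bp). Dp, the partner of E2F in cell cycle control, had a pair of peaks by its second start, one at 429 bp with 3.22 and 2.43 (chr2R:13223822-13224217) and one at -155 bp with 4.69 in replicate 2 and no match in replicate 1 (chr2R:13223238-13223633).

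Of the genes of the HIF pathway and its hypoxia targets, 0 of 19 had a single-gene promoter peak, the glycolytic enzymes being counted in their own list, and the interval reaches 16.8%. No such peak was found either for proteasome subunits (0 of 48), vacuolar ATPase subunits (0 of 33), spliceosome and mRNA processing (0 of 35), actin and tubulin (0 of 20), chemosensory receptors (0 of 179), cuticle proteins (0 of 121) and cytochrome P450 enzymes (0 of 85). The upper limits were 2.10% for chemosensory receptors and 3.08% for cuticle proteins, and 4.32% or more for the rest. Of the 395 genes, 45 were in any list. Some of the zero counts did not hold on 1 replicate: the strongest regions of replicate 1 alone gave 2 HIF genes, 2 spliceosome genes, 1 actin or tubulin gene and 1 cytochrome P450 gene, and those of replicate 2 alone gave 1 cytochrome P450 gene. Peaks at shared promoters only were found for 2 proteasome genes and for 1 gene each of the HIF, vacuolar ATPase, spliceosome and cytochrome P450 lists.

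**Figure D5:**
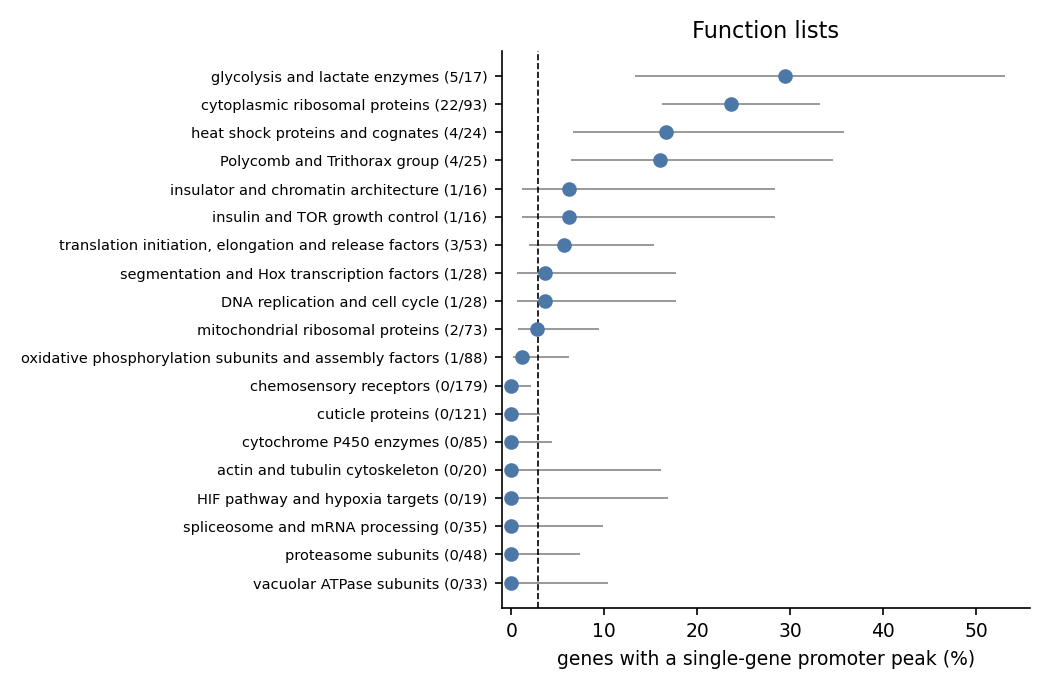
Percent of the genes of each function list that have a single-gene promoter peak (points, with 95% Wilson intervals; counts in brackets), with the background of 2.83% of all protein-coding genes as a dashed line. Intervals of glycolysis, ribosomal proteins, heat shock proteins and Polycomb and Trithorax genes lie to the right of the line, though for the last of these replicate 2 alone gave 2 genes in place of 4. The lists were chosen with earlier results of these data known, so their place against the line is a description and not a test.

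Names gave a little more. Only 108 of the 395 genes (27.3%) went by a CG number alone, beside 43.7% of all protein-coding genes. Among the genes with a RefSeq description, 260 of 6994 (3.72%) had a member peak. With the word kinase it was 9 of 174 (5.17%, 2.75 to 9.54%), among them Abl, Btk, Hipk and Nuak, named after their values were seen. The words transporter with 5 of 79 (6.33%), phosphatase with 4 of 78 (5.13%), dehydrogenase with 5 of 100 and GTPase activating with 3 of 30 all had intervals that include 3.72%. The word transferase gave 5 of 248 (2.02%), receptor 4 of 347 (1.15%) and homeobox 0 of 10. These words were chosen after the files were seen, and only 6994 of the 13945 genes have such a description.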

How the data were processed

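ChIP-seq of GFP-tagged Sima was done on 2 biological replicates of 1 group of embryos. The authors deposited lists of enriched regions on dm6 with a signal value per region, 30000 for each replicate and for the pooled reads, and an IDR list of 1272. Per the accompanying text files, each relaxed list was called against 1 control. The IDR list was checked to be the 1272 strongest pooled regions. The caller, the IDR cutoff and read totals are unknown from the sources used here, and so is depth. The dm3 lists were not used.

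Analysis was done in Python 3.11.15 (pandas 2.3.3, numpy 2.4.6, matplotlib 3.10.9) on the Release 6 genome and the Ensembl release 115 gene models. Each summit was assigned to its nearest start, and a replicate's region matched when its summit lay within 100 bp. Starts within 100 bp were merged. Shares have 95% Wilson intervals. The counting was tested on simulated data.

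Named genes are the 12 strongest members, the 2 strongest of each list, the strongest carrier of each element, the 5 strongest at most upstream and at other starts, the 3 strongest genes with several peaks, the 3 strongest unmatched members and the peaks at the distance limit. Other members in the text (TRAM, Trl, Pc, kis, Hsp26, Hsc70-4, eIF3c, Ptpmeg2, dnc, further glycolytic and ribosomal protein genes, kinases and genes with paired summits) were chosen after their values were seen. One gene that the rule names is not reported here. The members and lists were chosen with earlier results of these data known, and the windows of the elements and the name words after the files were seen. In the lists, 4 genes were looked up under newer symbols. Alternatives changed the distance, matching, merging, element windows, biotypes, signal threshold and replicates.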

Additional observations from a re-analysis of the deposited data

How the results depend on the processing

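Median position moved to -108 bp with a distance of 250 bp, -174 bp with 1000 bp, -179 bp among peaks above the list's median signal (224 members) and -157 bp with genes of every biotype, and ranged from -156 to -141 bp on 1 replicate alone. The upstream share was 77.3% at 1000 bp and 87.9% above the median signal, and ranged from 73.6 to 85.5% on 1 replicate alone, lowest on replicate 1. Matching in both replicates was 97.3% above the median signal, 71.8% within 50 bp, 99.3% within 200 bp and 59.0% among each replicate's strongest regions only. Alternative starts made up 54.03% at 250 bp and 53.7% when starts within 300 bp were merged, and the most upstream start took 45.3% at 250 bp. At 250 bp the initiator was at 11.0%, the DRE at 14.03% and GAGA at 24.8%; read at each gene's most upstream start they were 12.05%, 13.98% and 24.3%. Above the median signal the DRE was at 5.36%, ribosomal protein genes numbered 10 and glycolytic genes 3, and at 1000 bp ribosomal protein genes numbered 14. Searched from -100 to 50, the TATA box was at 6.75% of members and 15.8% of all starts, the initiator at 47.0% and 43.7%, and the hypoxia core at 38.3% and 29.3%. The causes of these changes were not tested beyond the smaller or larger sets they select. No value changed sign. Of the main results' alternatives 61 stayed within the spread and 30 moved; of single lists and elements 113 stayed and 37 moved. No paired analysis was possible because there is 1 group. With unknown depth, peaks missing from the list cannot be read as unbound.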
